A study of Rattus norvegicus with 20 samples.

Results

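The genes of mitosis and chromosome segregation were followed in rat blood before and after an overdose of acetaminophen (APAP). A list of 50 genes was used, and 43 of them were found on the array under a probe set annotated with exactly 1 gene symbol, out of 14217 genes annotated in that way. Each gene was represented by 1 probe set, a group of short oligonucleotides that gives 1 signal, and where a gene had several, the one with the highest mean signal was taken. The other 7 genes (Cdc25c, Nek2, Ndc80, Kif4a, Tpx2, Anln and Ncapg) had no such probe set and were not analysed here.

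Male Wistar rats were given a single oral dose of 1200 mg/kg APAP, and the 5 rats with the highest and the 5 with the lowest serum alanine transaminase after 24 h formed the susceptible and the resistant sub-groups. Blood drawn before dosing (predose) and 24 h after it (postdose) was hybridised to 20 arrays (Affymetrix Rat Genome 230 2.0), 5 for each of 4 groups: resistant predose, resistant postdose, susceptible predose and susceptible postdose. All rats were dosed, and no array of vehicle-treated rats was analysed here, so the change from predose to postdose includes the fast of 12 h before and 2 h after dosing, the second bleeding and the week between the samples. The methods name the retro-orbital plexus as the predose bleeding site and the inferior vena cava as the postdose site, whereas the labels name the retro-orbital plexus for both. RNA was extracted after a lysis step for the red cells. Each of the 10 rats was sampled at both times, but no label ties a predose to a postdose array, and all arrays entered the fits as separate samples.

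Dividing cells condense their chromosomes, attach sister chromatids to spindle microtubules at the kinetochores, hold anaphase back through a checkpoint until all are attached, and then separate the sisters and pinch into daughter cells. Entry is driven by cyclin-dependent kinase 1 with B-type cyclins, and exit by the anaphase-promoting complex, which marks these cyclins and securin for destruction. Most circulating leukocytes do not divide, so in blood many such transcripts would come mainly from the minority of cells that are cycling or recently were. The cell source of each member was not tested here. In a bulk blood sample, fewer cycling cells and less RNA per cell cannot be told apart.

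Signals are given as log2 of the intensity after scaling all arrays to the same median (1000), and a difference of 1 is a doubling. Signals of different probe sets are not levels that can be set against each other, so each gene was compared only with itself. Groups were compared with limma over all probe sets that passed a low-signal filter, with a Benjamini-Hochberg adjusted p under 0.05 as the threshold. All 43 members passed the filter in every comparison. Of them, 32 exceeded the highest bacterial negative control (the trp probe sets) on all 20 arrays. The 11 others were Ttk, above the controls on 3 arrays, Cenpe (8 arrays), Plk1 (11), Cenpa (11), Bub1b (15), Top2a (16), Ccna2 (17), and Ect2, Kif2c, Kif20b and Ncaph (19 each). The standard error of a change within a sub-group had a median of 0.22 over the 32 and of 0.69 over the 11, so that a change of a given size was harder to detect among the latter.

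After APAP, Cks2, Plk4 and Spc25 fell in resistant rats, Spc25 fell in susceptible rats, and Bub1b and Smc4 joined these 3 genes when the change was averaged over both sub-groups. No member rose at the adjusted threshold in any comparison on its probe set of highest signal, while a dimmer probe set of Incenp did in susceptible rats and in the mean change. In resistant rats 3 of 43 members were lower at adjusted p under 0.05, beside 2.6% of all 30747 probe sets tested that were lower and 2.51% that were higher. In susceptible rats 1 of 43 was lower, beside 2.8% lower and 3.86% higher among all probe sets. For the mean change over both sub-groups 5 of 43 were lower, which is 11.6% of the members, beside 6% lower and 6.28% higher among all probe sets. The share of members called in either direction was therefore near the 12.3% called among all probe sets, and all of the member calls were decreases.

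Cks2 encodes a small subunit that binds cyclin-dependent kinases. Its log2 signal was 13.65, 13.15, 14.03, 13.86 and 13.75 on the resistant predose arrays and 11.64, 12.04, 12.24, 12.32 and 13.14 on the resistant postdose arrays. It was 13.20, 14.11, 13.70, 14.32 and 13.16 on the susceptible predose arrays and 12.86, 12.30, 13.61, 13.10 and 13.04 on the susceptible postdose arrays. Every resistant postdose array was below every resistant predose array, although by a margin of only 0.01, while the susceptible groups overlapped. The fall in resistant rats was 1.41 on the log2 scale (SE 0.29, limma adjusted p = 0.00789), and it passed the threshold in all 30 alternative settings. In susceptible rats the log2 difference was -0.72 (SE 0.29, limma adjusted p = 0.181), and the difference between the changes of the sub-groups was 0.70 (SE 0.42, limma adjusted p = 0.793). The mean change was -1.06 (SE 0.21, limma adjusted p = 0.00198).

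Spc25 encodes a subunit of the Ndc80 complex, which binds microtubules at the kinetochore. Its log2 signal was 10.17, 10.51, 9.90, 10.58 and 10.07 on the resistant predose arrays and 9.71, 9.39, 9.73, 9.19 and 9.63 on the resistant postdose arrays. In susceptible rats it was 10.38, 10.93, 10.35, 10.60 and 10.72 before and 10.003, 10.23, 10.07, 9.99 and 9.55 after dosing. All postdose arrays were below all predose arrays in both sub-groups. Spc25 fell by 0.71 in resistant rats (SE 0.17, limma adjusted p = 0.0165) and by 0.63 in susceptible rats (SE 0.17, limma adjusted p = 0.0282), and the changes differed by 0.08 (SE 0.23). The fall in resistant rats had a limma adjusted p of 0.0507 without resistant predose replicate 4 and of 0.0595 in a fit of the arrays compared alone, and over all alternatives its adjusted p ranged from 0.0107 to 0.0943. In susceptible rats the range was 0.0156 to 0.114, and the call was lost without susceptible predose replicate 2, 4 or 5 and without susceptible postdose replicate 1 or 5, and in a fit of the arrays compared alone (adjusted p = 0.0789). The mean change of -0.67 (SE 0.12, limma adjusted p = 0.000761) passed in all 29 alternatives.

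Plk4 encodes the kinase that starts centriole duplication. Its log2 signal was 11.13, 10.73, 11.04, 11.08 and 11.60 on the resistant predose arrays and 10.41, 10.34, 10.72, 10.52 and 10.47 on the resistant postdose arrays. On the susceptible arrays it was 10.96, 11.27, 10.67, 11.47 and 11.38 before and 10.55, 10.59, 10.88, 10.59 and 10.80 after dosing. The resistant groups did not overlap, by a margin of about 0.01 between the lowest predose and the highest postdose array, and the susceptible groups did. Plk4 fell by 0.63 in resistant rats (SE 0.16, limma adjusted p = 0.0317), but 12 of 30 alternatives ended that call, with adjusted p from 0.0185 to 0.0935 over all of them. Of the 12, 8 omitted a single resistant array (replicates 1, 3, 4 and 5 before and 1, 2, 4 and 5 after dosing), and the others included the values as deposited, the 75th percentile scaling and a fit of the arrays compared alone. The mean change was -0.55 (SE 0.12, limma adjusted p = 0.00355) and passed in all 29 alternatives.

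**Figure D1:**
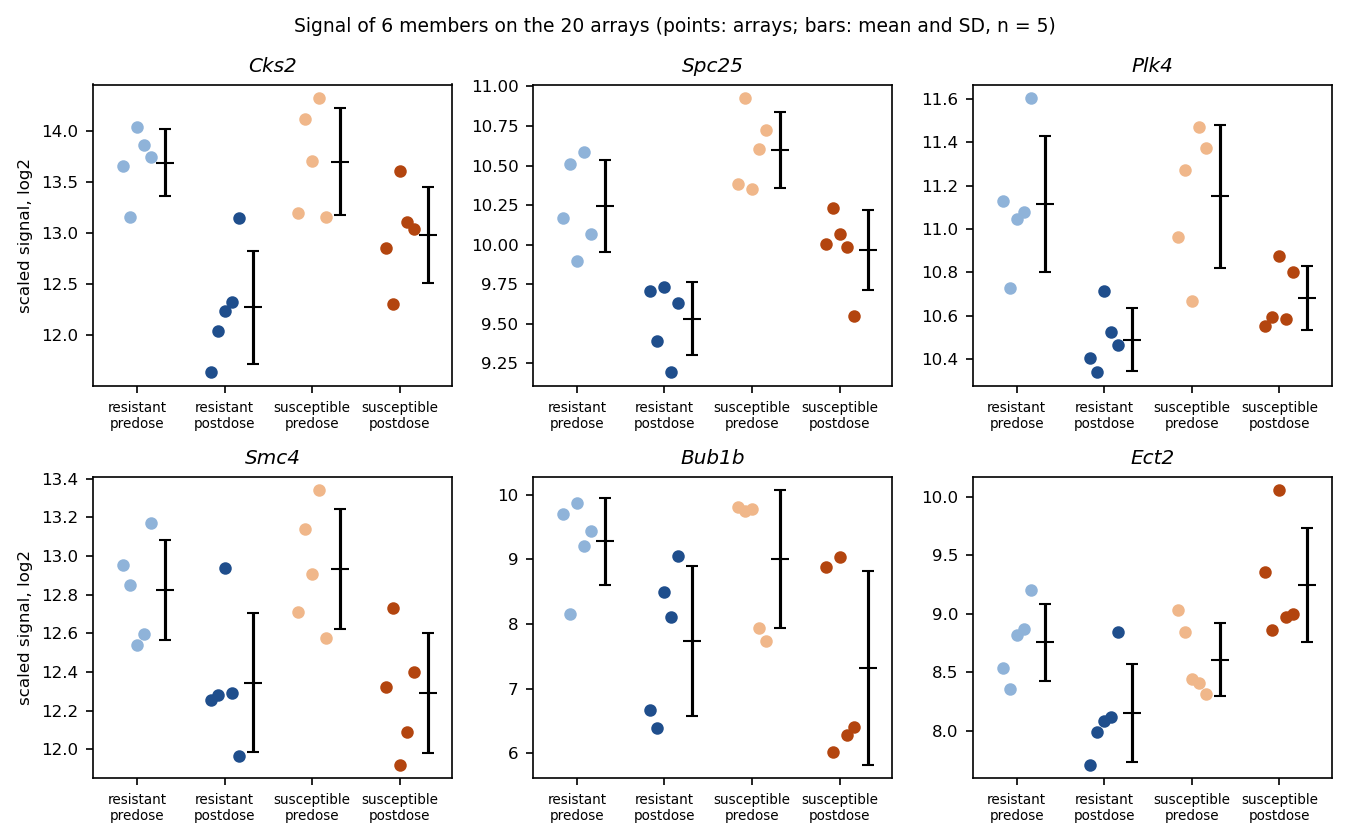
Scaled log2 signal of Cks2, Spc25, Plk4, Smc4, Bub1b and Ect2 on each of the 20 arrays (points) with the mean and SD of each group of 5 (bars); each panel has its own axis. The resistant postdose arrays of Cks2, Spc25 and Plk4 lie below the resistant predose arrays, Bub1b is spread over more than 3 units, and Ect2 is higher on every susceptible postdose array than on any resistant postdose array.

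Smc4 encodes an ATPase of condensin, the ring complex that compacts mitotic chromosomes. Its log2 signal was 12.96, 12.85, 12.54, 12.60 and 13.17 on the resistant predose arrays and 12.25, 12.28, 12.94, 12.29 and 11.97 after dosing. The susceptible arrays read 12.71, 13.14, 12.91, 13.34 and 12.58 before and 12.32, 12.73, 11.92, 12.09 and 12.40 after dosing. The groups overlapped in both sub-groups, in resistant rats through replicate 3 of the postdose arrays. The mean change was -0.56 (SE 0.14, limma adjusted p = 0.012). A second Smc4 probe set, also above the controls on all 20 arrays, had a mean change of 0.11 (limma adjusted p = 0.808), and with the mean of both probe sets the change was -0.23 (adjusted p = 0.396, with a range over all alternatives of 0.00313 to 0.396). The fall of Smc4 was thus seen on 1 of its 2 probe sets.

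Bub1b encodes the checkpoint protein BubR1. Its log2 signal was 9.71, 8.16, 9.87, 9.21 and 9.44 before and 6.68, 6.39, 8.49, 8.10 and 9.05 after dosing in resistant rats. In susceptible rats it was 9.81, 9.74, 9.78, 7.93 and 7.73 before and 8.88, 6.02, 9.04, 6.28 and 6.40 after dosing. The groups overlapped in both sub-groups, and 5 of the 20 signals were not above the controls. All 5 were postdose (resistant replicates 1 and 2, susceptible replicates 2, 4 and 5), so the size of the fall is poorly determined. The mean change was -1.61 (SE 0.49, limma adjusted p = 0.0382), the largest of any member, and leaving out any 1 of 12 arrays ended the call (resistant predose replicates 1, 3, 4 and 5, resistant postdose replicates 1 and 2, susceptible predose replicates 1, 2 and 3, and susceptible postdose replicates 2, 4 and 5), with adjusted p from 0.0135 to 0.0731 over all alternatives.

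The promoters of these genes were taken from RefSeq (build GRCr8), where 38 of the 43 members had an entry. Many late cell cycle promoters carry a cell cycle genes homology region, read here as TTTGAA on either strand, together with CCAAT boxes, to which the factor NF-Y binds. In the 300 bases from 250 before to 50 after the start, TTTGAA was present in 27 of 38 members (71.1%) and in 18.3% of all 33469 promoters of the same length. CCAAT was present in 30 of 38 members (78.9%) and in 37.5% of all promoters, and both motifs were present in 23 members (60.5%) and in 7.41% of all promoters. These are matches of letters and no evidence of binding. The 250 bases before the start are shown for the 3 genes that fell in resistant rats and for Ect2, described further on, 5′ to 3′ in the direction of transcription, with matches to TTTGAA (or TTCAAA, its other strand) and CCAAT (or ATTGG) in capitals.
Cks2, chr17:13727520-13727769, minus strand: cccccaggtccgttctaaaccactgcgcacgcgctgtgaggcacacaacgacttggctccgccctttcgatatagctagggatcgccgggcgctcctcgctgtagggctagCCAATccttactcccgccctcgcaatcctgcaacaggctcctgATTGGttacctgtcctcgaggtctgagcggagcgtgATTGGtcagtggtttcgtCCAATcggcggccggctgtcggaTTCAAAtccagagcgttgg
Spc25, chr3:74396719-74396968, minus strand: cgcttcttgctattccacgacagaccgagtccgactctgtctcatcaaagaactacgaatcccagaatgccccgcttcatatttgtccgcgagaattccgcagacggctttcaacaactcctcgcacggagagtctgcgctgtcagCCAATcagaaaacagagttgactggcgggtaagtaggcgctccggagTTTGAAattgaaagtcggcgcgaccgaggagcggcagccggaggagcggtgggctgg
Plk4, chr2:125730230-125730479, plus strand: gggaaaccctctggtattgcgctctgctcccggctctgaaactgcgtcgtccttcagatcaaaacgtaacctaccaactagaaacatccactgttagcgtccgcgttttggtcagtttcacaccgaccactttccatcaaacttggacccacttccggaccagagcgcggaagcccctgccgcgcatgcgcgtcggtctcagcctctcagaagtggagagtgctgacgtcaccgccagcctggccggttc
Ect2, chr2:111966627-111966876, minus strand: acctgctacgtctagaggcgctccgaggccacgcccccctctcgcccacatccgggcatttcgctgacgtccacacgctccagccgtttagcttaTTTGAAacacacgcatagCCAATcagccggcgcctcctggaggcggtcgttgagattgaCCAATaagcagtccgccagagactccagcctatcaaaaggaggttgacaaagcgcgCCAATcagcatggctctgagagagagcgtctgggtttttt
Cks2 had 4 CCAAT matches, Ect2 had 3 and Spc25 had 1 in this window with a further 1 after the start. Plk4 had none of either motif before the start and a TTCAAA match 19 bases after it.

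Before dosing, the sub-groups did not differ in any member at the adjusted threshold. None of 43 members was called by limma, beside 0.00329% of 30416 probe sets. None passed an unadjusted p under 0.05, beside 3.74% of all probe sets, and none met the criteria of the methods, Welch's test with p under 0.05 and a fold change of at least 2, beside 1.22% of all probe sets. The median difference, susceptible minus resistant, was 0.04 over the members and -0.02 over all probe sets. The predose differences included -1.24 for Cenpa and 0.94 for Ttk, neither above the controls on all arrays. Those counts are of the probe set of highest signal for each gene. Among the other probe sets of members, a dimmer one of Incenp, which the study selected on these same samples, had a predose difference of -2.12 (limma unadjusted p = 0.00907, adjusted p = 1), and one of Cdc20 had -0.62 (unadjusted p = 0.0487, adjusted p = 1). By real-time PCR in an independent set of rats, the paper also reports lower predose Incenp in the more susceptible animals.

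The signs of the changes were counted in each sub-group, without a test of the counts. In resistant rats 32 of 43 members had a change below 0, beside 50.9% of all probe sets, with a median of -0.27 over the members and -0.01 over all probe sets. At an unadjusted p under 0.05, 9 members were lower (Cdk1, Cks2, Plk4, Bub1b, Cenpf, Spc25, Ect2, Racgap1 and Smc4) and none was higher, beside 8.77% lower and 8.36% higher among all probe sets. That count was 5 without predose replicate 1, without predose replicate 5 or without postdose replicate 1 of the resistant rats. In susceptible rats 26 of 43 members were below 0, beside 48.7%, with a median of -0.08 against 0.01 over all probe sets, and 6 members were lower and 2 (Ccnb2 and Ect2) higher at unadjusted p, beside 8.76% and 10.2%. For 20 members the change was below 0 in both sub-groups, for 5 above 0 in both, for 12 below 0 in resistant and above 0 in susceptible rats, and for 6 the reverse. Over the 32 members above the controls on all arrays the medians were -0.26 in resistant and -0.01 in susceptible rats, where 17 of the 32 were below 0. The median in susceptible rats ran from -0.22 to 0.01 when each array was left out in turn.

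**Figure D2:**
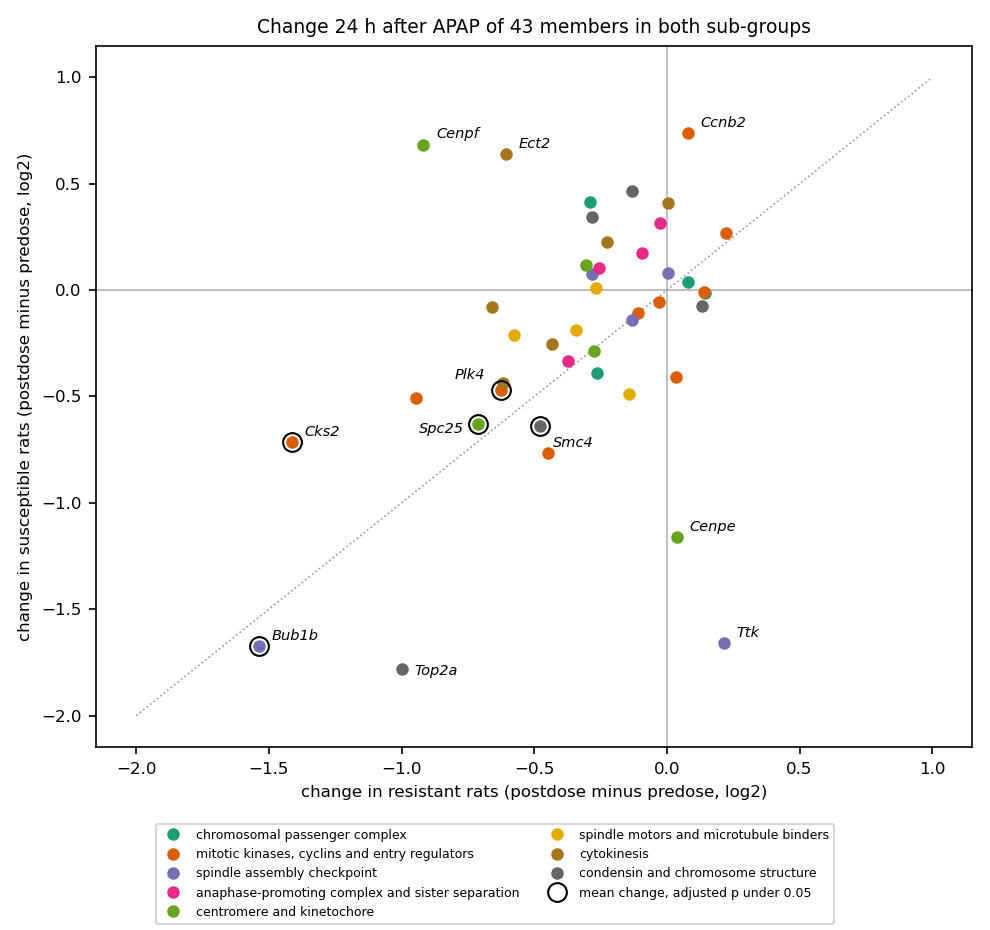
Change from predose to postdose of the 43 members in resistant rats (horizontal axis, log2) and susceptible rats (vertical axis, log2), coloured by role; rings mark the 5 members whose mean change passed adjusted p under 0.05, and the dotted line marks equal changes. Of the members, 20 lie in the lower left, and Cenpf and Ect2 lie furthest toward the upper left.

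By role, the chromosomal passenger complex, which corrects wrong attachments and later guides cytokinesis, had no member called in the mean change on the probe sets of highest signal. Its kinase Aurkb read 11.84, 11.45, 11.47, 11.13 and 10.80 on the resistant predose and 10.86, 11.54, 11.32, 10.32 and 11.35 on the resistant postdose arrays. In susceptible rats Aurkb was 11.62, 11.64, 11.27, 11.45 and 11.32 before and 10.53, 11.12, 11.24, 11.21 and 11.25 after dosing. The susceptible groups of Aurkb did not overlap, but by 0.02 only, and the change of -0.39 (SE 0.23) had a limma adjusted p of 0.384. Non-overlapping groups with the postdose arrays lower were found for 2 of 43 members in susceptible rats (Aurkb and Spc25), beside 2.91% of all probe sets, and for 4 in resistant rats (Cdk1, Cks2, Plk4 and Spc25), beside 3.53%.

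Birc5, or survivin, another subunit of the passenger complex, read 10.59, 10.68, 10.43, 10.55 and 10.30 before and 10.84, 10.26, 10.56, 10.42 and 10.86 after dosing in resistant rats. In susceptible rats it was 10.48, 10.90, 10.39, 10.90 and 11.67 before and 11.33, 10.72, 11.07, 10.27 and 11.14 after dosing. All 4 groups of Birc5 overlapped, with group means of 10.51 and 10.59 in resistant and 10.87 and 10.91 in susceptible rats before and after dosing. Cdca8, or borealin, was 10.12, 9.66, 10.30, 9.97 and 9.73 before and 9.75, 9.73, 9.23, 9.77 and 9.86 after dosing in resistant rats. On the susceptible arrays it was 8.51, 10.22, 10.17, 9.38 and 9.89 before and 10.43, 9.84, 10.41, 10.29 and 9.29 after dosing. Its groups overlapped, and the differences were -0.29 in the resistant and 0.42 in the susceptible sub-group (SE 0.29 each), neither past the threshold. Incenp, the scaffold, had 3 probe sets. The one of highest signal read 10.20, 10.33, 10.75, 10.71 and 10.73 on the resistant predose and 11.06, 10.44, 10.93, 10.94 and 10.07 on the resistant postdose arrays. It read 10.57, 10.47, 10.65, 10.41 and 10.13 on the susceptible predose and 10.10, 10.82, 10.43, 10.28 and 10.54 on the susceptible postdose arrays. These groups overlapped, with group means of 10.54, 10.69, 10.45 and 10.43 in resistant predose, resistant postdose, susceptible predose and susceptible postdose blood, with changes of 0.14 and -0.01. A dimmer one (above the controls on 17 arrays) had 9.10, 9.20, 6.99 and 9.39, with SDs of 0.29, 0.44, 1.54 and 0.36, and rose by 2.41 in susceptible rats (limma adjusted p = 0.00711). This probe set was among those the study selected on these same samples, so its rise here is not independent evidence. The paper's real-time PCR of blood in an independent set of rats covered predose samples and so not this rise. The third had changes of -0.43 and -0.15 (limma adjusted p = 0.738 and 0.912). The rise was therefore seen on 1 of 3 probe sets of Incenp and on none of its 3 partners.

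Among the 10 mitotic kinases, cyclins and entry regulators, Cks2 and Plk4 were called and the mean changes ran from -1.06 (Cks2) to 0.41 (Ccnb2). Cdk1, the kinase that drives entry into mitosis, was 10.61, 10.18, 9.77, 10.08 and 9.54 before and 8.89, 9.14, 9.49, 8.67 and 9.26 after dosing in resistant rats. In susceptible rats Cdk1 was 10.52, 10.41, 9.89, 9.48 and 9.80 before and 9.82, 7.94, 10.85, 9.52 and 9.42 after dosing. It had a change of -0.95 in resistant rats with no overlap (SE 0.38, limma adjusted p = 0.189) and of -0.51 in susceptible rats. Of its cyclin partners, Ccnb1 had changes of -0.03 and -0.05, and Ccnb2 of 0.08 and 0.74 (limma adjusted p = 0.223). Cdc25b, a phosphatase that activates cyclin-dependent kinases and the member of highest signal, was 16.72, 16.90, 16.71, 16.97 and 17.21 before and 17.29, 16.77, 16.64, 17.15 and 17.34 after dosing in resistant rats. It was 16.84, 16.47, 17.11, 17.37 and 17.42 before and 17.12, 17.14, 16.64, 16.91 and 17.35 after dosing in susceptible rats. All of its groups overlapped, with changes of 0.14 and -0.01 (SE 0.19 each).

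In the spindle assembly checkpoint, Bub1b alone was called. Bub3, which brings Bub1 and BubR1 to kinetochores, read 14.77, 14.83, 14.70, 14.47 and 14.59 on the resistant predose and 14.82, 14.75, 14.65, 14.43 and 14.74 on the resistant postdose arrays. In susceptible rats it was 14.72, 14.74, 14.498, 14.52 and 14.60 before and 14.66, 14.62, 14.69, 14.94 and 14.57 after dosing. All groups overlapped within 14.43 to 14.94, and the mean change was 0.04 (SE 0.07, 95% interval from -0.11 to 0.20). A dimmer Bub3 probe set, above the controls on all 20 arrays, had a change of -0.68 in resistant rats (limma adjusted p = 0.42) and a mean change of -0.33 (adjusted p = 0.55), and with the mean of both probe sets the mean change was -0.14 (adjusted p = 0.625). The changes of Mad2l1, a core checkpoint protein, were -0.13 and -0.14. Ttk, the kinase upstream of the checkpoint, differed by -1.66 in susceptible rats (limma adjusted p = 0.269) on a probe set that was above the controls on 3 arrays.

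Of the 4 genes of the anaphase-promoting complex pathway and sister separation, Ube2c, its ubiquitin-conjugating enzyme, had the lowest mean change (-0.35, SE 0.19, limma adjusted p = 0.275) and Cdc20, its activator, the highest (0.14). Ube2c read 13.79, 13.83, 13.65, 13.99 and 14.05 on the resistant predose arrays and 13.89, 12.99, 12.85, 13.77 and 13.95 on the resistant postdose arrays. The low values were on replicates 2 and 3, on which Pttg1, or securin, also had its lowest values of all 20 arrays (12.22 and 11.94). Those replicates were also the lowest in the erythroid precursor markers, whose median deviation was -0.67 and -0.65 there and between -0.42 and 0.64 on the other arrays. Susceptible postdose replicate 3, at -0.42, had Ube2c at 13.18 and Pttg1 at 13.33. A link of these markers to Ube2c and Pttg1 was not tested. In susceptible rats Ube2c was 13.62, 13.28, 13.81, 14.52 and 14.55 before and 13.86, 13.66, 13.18, 13.39 and 14.02 after dosing. Cdc20 had 5 probe sets, and the mean changes ran from -0.79 to 0.34, with none past the threshold. The 15 subunits of the complex itself on the array had a median mean change of -0.02, and 1 of them (Anapc16) was called, lower, beside 6% of all probe sets.

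Among the centromere and kinetochore genes Spc25 alone was called, and the mean change nearest 0 was -0.09 (Nuf2, its partner in the Ndc80 complex). Cenpf, a large kinetochore protein, was 9.37, 9.29, 9.502, 9.52 and 9.80 before and 8.39, 8.51, 8.30, 9.62 and 8.09 after dosing in resistant rats. It was 9.09, 9.22, 7.84, 9.08 and 10.39 before and 9.95, 10.38, 10.46, 8.48 and 9.78 after dosing in susceptible rats. It was thus lower on 4 of 5 resistant postdose arrays than on any resistant predose array. The changes were -0.92 and 0.68 and differed by 1.60, the widest difference of changes toward the susceptible sub-group (limma unadjusted p under 0.05, but not past the adjusted threshold). The spindle motors and microtubule binders had mean changes from -0.39 (Kif2c, a microtubule depolymerase, on 1 of its 2 probe sets) to -0.13 (Kif22), and none passed.

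In the condensin and chromosome structure group, Smc4 was called while its partner Smc2 had changes of 0.13 and -0.07. Top2a, the topoisomerase that untangles sister DNA, read 10.54, 10.02, 10.89, 9.89 and 7.13 on the resistant predose and 7.07, 8.82, 9.43, 9.69 and 8.47 on the resistant postdose arrays. In susceptible rats Top2a was 9.43, 8.22, 9.99, 10.06 and 11.00 before and 9.44, 8.83, 10.27, 5.10 and 6.14 after dosing. With groups that overlapped and spanned up to 5 units, its mean change of -1.39 (SE 0.65) had a limma adjusted p of 0.202. Mki67, which coats mitotic chromosomes and is widely used to mark cycling cells, was 12.93, 12.40, 12.82, 12.10 and 12.06 before and 12.02, 11.68, 11.97, 12.53 and 12.70 after dosing in resistant rats. In susceptible rats it was 12.27, 11.999, 11.74, 12.25 and 13.18 before and 12.89, 12.60, 12.94, 12.04 and 12.70 after dosing. All 4 groups of Mki67 overlapped, and its changes of -0.28 and 0.35 (SE 0.27 each) did not pass.

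**Figure D3:**
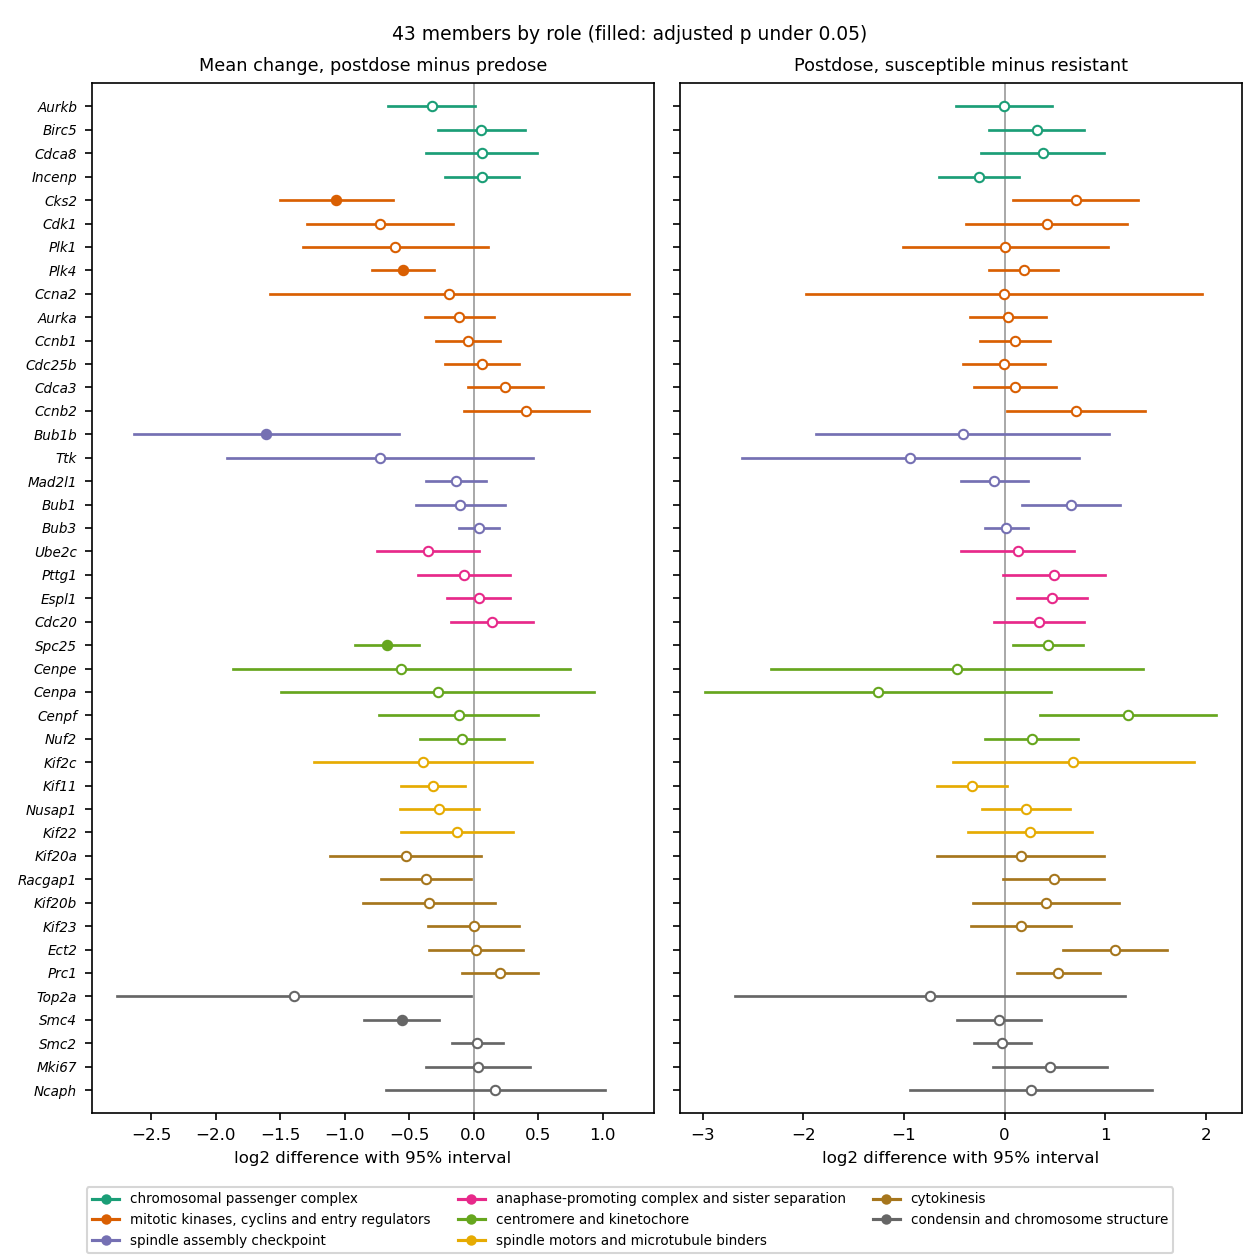
Log2 difference (points) and 95% interval (lines) of each member for the mean change after dosing (left) and for susceptible minus resistant after dosing (right), ordered by role; filled points passed adjusted p under 0.05. On the left 5 points are filled, all below 0, and on the right none is filled. On the right all 6 cytokinesis genes and all 4 of the anaphase-promoting complex and sister separation lie above 0 on the probe sets shown.

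Between the sub-groups after dosing, none of 43 members passed the adjusted threshold in limma, beside 0.143% of all probe sets. At an unadjusted p under 0.05, 8 members were higher in susceptible rats (Ccnb2, Cks2, Bub1, Espl1, Cenpf, Spc25, Prc1 and Ect2) and none was lower, beside 5.1% and 4.08% of all probe sets. The criteria of the methods were met by 2, Cenpf and Ect2, beside 1.82% of all probe sets. Of the members, 30 were above 0, beside 49.6% of all probe sets, and the median was 0.19 against 0.00 over all probe sets. The count of 8 ran from 6 to 13 with each array left out, and it was 13 without susceptible postdose replicate 4. It was 5 in a fit with a block for the replicate number. These values share the resistant and susceptible postdose arrays with the changes given above.

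The cytokinesis genes had the widest postdose gap of the roles, with all 6 above 0 on the probe sets of highest signal and a median of 0.45, and values from 0.16 to 1.10. All 4 genes of the anaphase-promoting complex pathway and sister separation were also above 0 on those probe sets, with a median of 0.41. Other probe sets of Cdc20 had postdose differences of 0.50, 0.60, -0.82 and -0.75, none past the adjusted threshold. The last 2 were not above the controls on all arrays. Ect2, the exchange factor that activates RhoA at the cleavage furrow, had the smallest p of any member in the postdose comparison. Its log2 signal was 8.53, 8.35, 8.82, 8.87 and 9.20 on the resistant predose arrays and 7.71, 7.99, 8.08, 8.12 and 8.84 on the resistant postdose arrays. In susceptible rats it was 9.03, 8.85, 8.44, 8.41 and 8.31 before and 9.36, 8.86, 10.05, 8.97 and 8.997 after dosing. Every susceptible postdose array was above every resistant postdose array, by 0.02 at the closest, a pattern that 1 of 43 members and 1.56% of all probe sets showed in that direction. The postdose difference was 1.10 (SE 0.25, limma adjusted p = 0.0854, with 0.0506 to 0.563 over the alternatives), and the changes of -0.61 and 0.64 differed by 1.25 (SE 0.35, limma adjusted p = 0.385). Its partners in the furrow, Racgap1 and Kif23 of the centralspindlin complex, had postdose differences of 0.49 and 0.16 on the probe sets of highest signal and of -0.28 and -0.21 on a second probe set of each, and Prc1, which bundles midzone microtubules, one of 0.53 (limma adjusted p = 0.554 for Racgap1 and 0.38 for Prc1). For the difference between the changes of the sub-groups, none of 43 members was called in limma, beside 0% of all probe sets, and 2, Cenpf and Ect2, were higher at unadjusted p, beside 4.1%.

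The arrays of 1 group differed among themselves in these genes. Susceptible postdose replicate 3 had the highest median deviation of the members from their means (0.40) and was the highest array for 11 of 43 members, and susceptible postdose replicate 4 had one of -0.29. Resistant postdose replicate 2 had the lowest (-0.46) and was the lowest array for 7. Susceptible predose replicate 5, at 0.26, was the highest for 8. Susceptible postdose replicate 3 also had the highest deviation of all arrays in neutrophil (1.31), immature granulocyte (0.82) and plasma cell markers (0.34). It had the lowest in T cell (-0.27) and in stem and progenitor markers (-0.79). A link of these markers to the members was not tested.

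**Figure D4:**
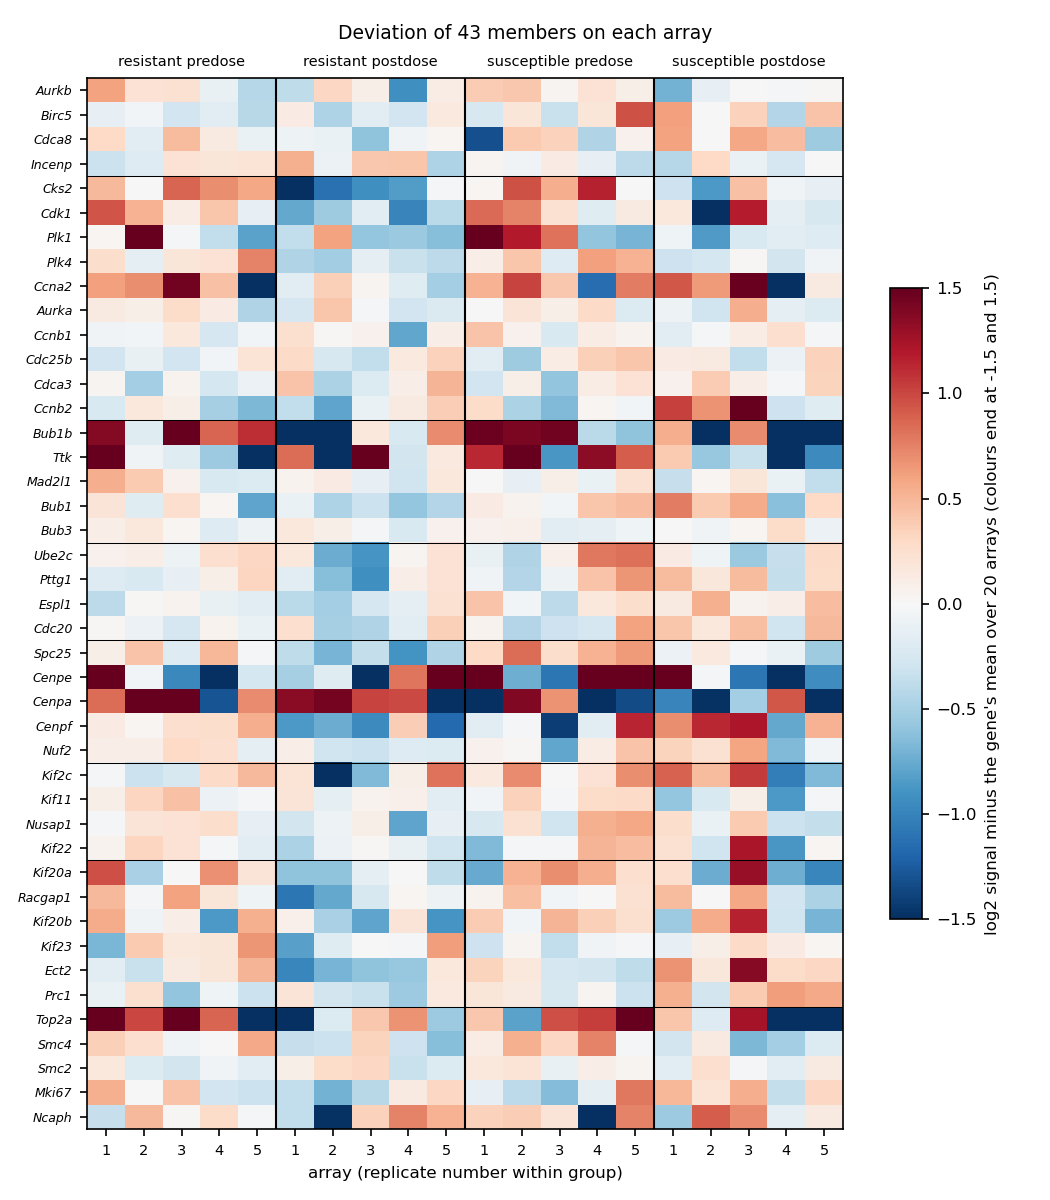
Deviation of each member (rows, grouped by role) from its mean over the 20 arrays (columns, by group and replicate), in log2 units, with colours ending at -1.5 and 1.5. The column of susceptible postdose replicate 3 is red for most genes, that of resistant postdose replicate 2 mostly blue, and the rows of Ttk, Cenpe, Cenpa and Top2a vary widely within every group.

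Other genes of division were examined in the same fits. Of 61 further mitosis genes on the array, 8 fell on average over both sub-groups (Cenpk, Cenpm, Mis18a, Ska3, Kntc1, Aspm, Ncaph2 and Stmn1) and 3 rose (Kif18a, Mis12 and Ckap5), with a median of -0.10. Among all probe sets tested, 6% were lower and 6.28% higher in the mean change, with a median of 0.01. Falls past the threshold included Ska3, which helps kinetochores track microtubule ends (-0.88, limma adjusted p = 0.0086). Another was Cenpk, of the constitutive centromere network (-0.70, limma adjusted p = 0.00355). Over all 61 genes, called or not, the lowest mean change was -1.16. Of 30 DNA replication and G1/S genes, 11 fell, none rose and 26 were below 0, with a median of -0.24. Of all 30747 probe sets, 15111 were below 0. Among them Rfc3, of the clamp loader, fell by 0.74 (limma adjusted p = 3e-05), Mcm7, of the replicative helicase, by 0.46 (adjusted p = 0.000332) and Pcna, the sliding clamp, by 0.36 (adjusted p = 0.00961). The replication genes had similar medians in resistant (-0.27) and susceptible rats (-0.24), and a postdose difference of 0.07.

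Markers of blood cell types moved in the same comparisons, and their part in the members' changes was not tested. The marker counts for the mean change stand beside 6% lower and 6.28% higher among all probe sets. For the mean change, 5 of 6 B cell markers were lower and none higher (median -0.38), 3 of 14 T cell markers lower and 1 higher (-0.10), all 7 natural killer cell markers higher (1.15), 5 of 8 neutrophil markers higher (0.88), and 1 of 6 plasma cell markers higher (0.23). Of the 8 monocyte markers 1 was higher and 1 lower, and of the 3 immature granulocyte markers 1 was higher. Of the 11 erythroid precursor markers 1 was lower. Erythroid signal remained despite the lysis (Hbb 18.18 and Alas2 17.53 on average), which does not show whether dividing cells were among its sources. After dosing 10 of 11 erythroid markers and all 6 platelet and megakaryocyte markers were higher in susceptible rats by value (medians 0.17 and 0.21), with none past the threshold. Of all probe sets, 49.6% were above 0 in that comparison. The erythroid median deviation per array ran from -0.67 to 0.26 in the resistant postdose and from -0.42 to 0.36 in the susceptible postdose group. Of the stem and progenitor markers 5 were tested and 1, Myb, a transcription factor of progenitors, fell by 1.16 (limma adjusted p = 2.4e-05). These 5 markers did not move together: 3 had a mean change below 0 and 2 above 0, up to 0.63.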

How the data were processed

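Blood RNA was measured on 20 arrays, 5 per group. The authors deposited 1 linear intensity per probe set and array, with array medians from 187 to 223; the methods name ArrayTrack and a median of 1000 per chip, and the software that summarised probes is not given in the sources used here. Here the 57 control probe sets were set aside, the other 31042 were brought to a median of 1000 on every array, and log2 was taken. The predose comparison tested 30416 probe sets that reached 100 on some predose array; the others tested the 30747 that reached 100 anywhere. Limma 3.58.1 in R 4.3.3 (lmFit, eBayes; two-sided) was fitted to the 10 predose arrays for the predose comparison and to all 20 otherwise, without a replicate block. The number of arrays limits the precision. Symbols came from the platform annotation (20826 probe sets with 1 symbol, 436 with several, 9780 with none). Values on every array were given for members past the threshold, for the smallest p up to 6 members, the passenger complex, Mki67, Top2a and the 4 brightest members. Those of Cenpf and Cdk1 and the lowest of Pttg1 were added after they had been seen. The members and lists were chosen with earlier results of these data known. The fit was tested on simulated data. Alternatives were 3 other scalings, 2 other filters, a pseudocount of 100, 1 probe set per gene, the mean of a gene's probe sets, a replicate block, only the arrays compared, the test of the methods and leaving out each array; counts at unadjusted p and medians over members above the controls were added after seeing the data. Figures were drawn with matplotlib 3.10.9.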

Additional observations from a re-analysis of the deposited data

Results flagged for a closer look

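In 64 groups of 5 arrays, 3 held an array whose gap to its nearest neighbour exceeded the critical share of the group's range (0.71), about as many as the 5% of groups that chance marks. Aurkb was 10.53 on susceptible postdose replicate 1 and 11.12 to 11.25 on the others (gap share 0.812). Cdca8 was 9.23 on resistant postdose replicate 3 and 9.73 to 9.86 on the others (0.795). Top2a was 7.13 on resistant predose replicate 5 and 9.89 to 10.89 on the others (0.735).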

How the results depend on the processing

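Of 2520 values of the named members under alternatives, 2478 kept their side of the threshold, 36 lost a call, 6 gained one and no call reversed. A change of sign with no call was seen for 107 values. The number of members called in resistant rats (3) was 1 with only the arrays compared and 1 to 3 with each array left out. In susceptible rats the number (1) was 2 under the stricter filter and with 1 probe set per gene, 0 with only the arrays compared and 0 to 2 with each array left out. For the mean change (5) it was 4 to 7. The test of the methods called 2 members after dosing, where limma called 0. With each array left out, members lower at unadjusted p numbered 5 to 9 in resistant rats (9) and members higher after dosing 6 to 13 (8). The causes were not tested.

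The correlations of same-numbered deviations ran from -0.03 to 0.05, and 4 of 10 predose arrays correlated best with their own number. The highest correlation with any number within a sub-group was 0.06. These values are too small to tell whether equal numbers are the same rat, and the labels do not say. With the replicate block, 1 member was called in resistant rats (Spc25 and Plk4 were lost, adjusted p = 0.0943 and 0.0935), 0 in susceptible rats (Spc25, adjusted p = 0.114) and 4 for the mean change, where Smc4 was lost (adjusted p = 0.0618), and 5 members were higher at unadjusted p after dosing. Signals near the controls limit Ttk, Cenpe, Cenpa and Plk1, and some postdose signals of Bub1b.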
